A study of Mus musculus with 4 samples.

Results

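The genes described here are those of the proteasome, 51 genes whose mouse symbol starts with Psma to Psmg followed by a number, of the 24422 genes named in the count tables. For each gene the RefSeq transcript with the highest mean raw count was used, and all 51 passed the filter on low counts, as did 13136 genes in all. Of the 51, 49 encode subunits, activators, an inhibitor or assembly chaperones of the proteasome. The other two, Psmc3ip, a meiotic recombination factor, and Psme3ip1, a binding partner of the activator Psme3, match by name only and are counted apart. Poly(A) RNA came from RAW 264.7 cells, a mouse macrophage line derived from a virus-induced tumour. In 2 libraries the cells stably carried Dnm3os, a long noncoding RNA, and in 2 libraries they stably carried the empty plasmid pcDNA 3.1(+). Both groups were grown in medium with 5.5 mmol/L glucose and used at passages 3 to 6, and the labels do not say whether the cells of a group were a clone or a pool. The comparison asks which RNAs differ when the cells carry Dnm3os, which the series title describes as induced by diabetes.

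The 26S proteasome degrades proteins tagged with ubiquitin. Its 20S core is a barrel of outer alpha rings, which gate the entrance, and inner beta rings, which carry the proteolytic sites. The 19S particle caps the barrel: a ring of ATPases (Psmc genes) unfolds the substrate, and non-ATPase subunits (Psmd genes) bind ubiquitin, remove it and hold the particle together. Interferon gamma is known to induce Psmb8, Psmb9 and Psmb10, whose products replace Psmb5, Psmb6 and Psmb7 in newly made cores, and Psme1 and Psme2, which form a ring-shaped activator. The resulting immunoproteasome favours peptides for MHC class I molecules and is present in many haematopoietic cells.

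The libraries held between 29329201 and 39640782 counts over 1 transcript per gene. Dnm3os was counted 208 and 260 times in the Dnm3os libraries and 0 times in both empty vector libraries, which matches the labels. All 6 macrophage markers looked at were detected, with summed levels of 9500 to 9982 CPM (read counts scaled to a common library size) in the Dnm3os libraries and 8644 to 8821 CPM in the empty vector libraries, most of it Lyz2. By edgeR's adjusted p, Itgam (log2 fold change 1.01), Csf1r (0.27) and Lyz2 (0.15) were higher with Dnm3os, Adgre1 (-0.30) and Cd68 (-0.11) were lower, and Spi1 (-0.031) did not pass. The part of these differences in the values below was not tested. Markers of T cells, B cells, fibroblasts, epithelial and endothelial cells summed to at most 0.205 CPM per list and library, and the T cell genes Cd3e and Cd3g were at 0. Nothing in the labels says that replicate libraries stem from separate cultures, so the p-values measure only the spread between these libraries, which may be technical. In bulk RNA, fewer cells that use a gene and less of its RNA per cell cannot be told apart.

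The RNA of the proteasome differed little between the groups. Of the 51 genes, Psmg4 rose and Psma8 and Psmd2 fell by edgeR's quasi-likelihood test at an adjusted p under 0.05, and 48 did not pass. That is 5.88% of the genes, where 12.2% of all genes tested were called (6.48% higher and 5.77% lower). DESeq2 called 0 of the 51, against 5.76% of all genes. It had 1 higher and 4 lower at an unadjusted p under 0.05, for which no share of all genes was counted. Limma-voom called 1 higher and 2 lower, against 12.1% of all genes. At an unadjusted p under 0.05, edgeR had 17.6% of the 51 genes and 23.2% of all genes. The groups did not overlap for 41.2% of the 51 genes, against 51.2% of all genes.

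The sizes of the differences were small on both sides of 0. Over the 49 proteasome genes the log2 fold changes ran between -0.30 and 0.26, with 24 above 0 and 25 below. Their median was -0.0044, beside 0.00054 over all genes tested. The median absolute log2 fold change was 0.027, below the median standard error of 0.033 of the same genes; over all genes tested these were 0.077 and 0.064. The log2 fold change was within 0.1 of 0, which is less than 1.07-fold, for 93.9% of the proteasome genes and 58.6% of all genes, or 69.4% of the genes in the same range of mean CPM. That range ran from 5.69 to 654 CPM. Its genes had a median standard error of 0.054, so they were not matched to the proteasome genes in precision. The 95% interval of the log2 fold change lay wholly within 0.2 of 0, or 1.15-fold, for 44 of the 49 (89.8%). That held for 43.8% of all genes tested and 58.3% of the genes in the same range of mean CPM. The exceptions among the proteasome genes were Psma8, Psmb7, Psmb11, Psmb10 and Psmg4.

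**Figure D1:**
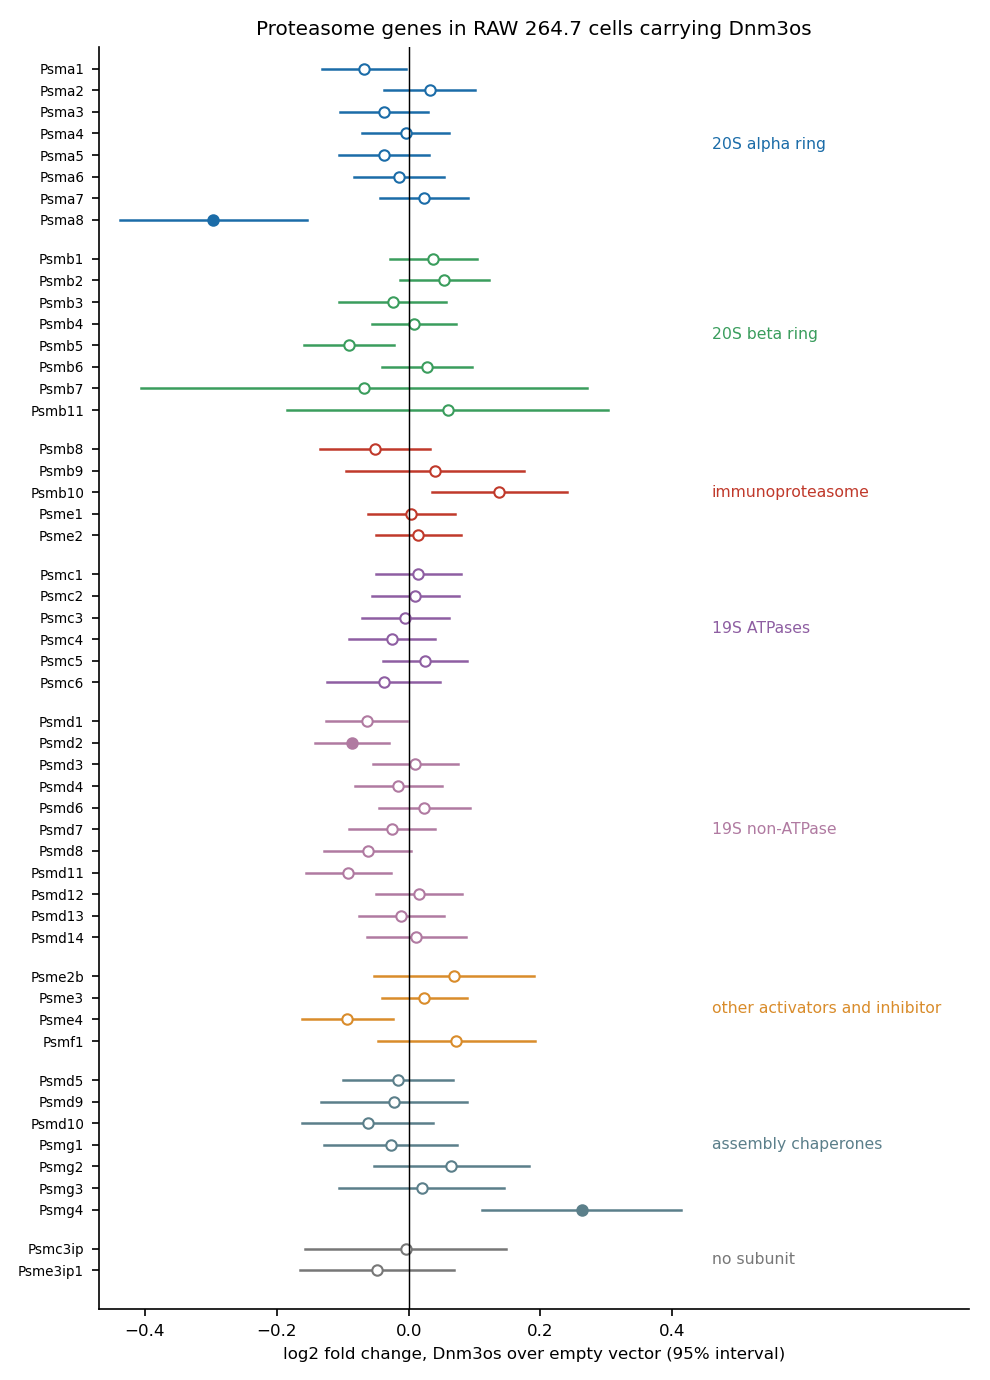
Log2 fold change of each gene, Dnm3os over empty vector (horizontal axis), grouped by role; points are edgeR estimates from 2 libraries per group, lines their 95% intervals, and filled points mark an adjusted p under 0.05. Psma8 at -0.30 and Psmg4 at 0.26 stand outside the band between -0.1 and 0.14 that holds the other genes.

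**Figure D2:**
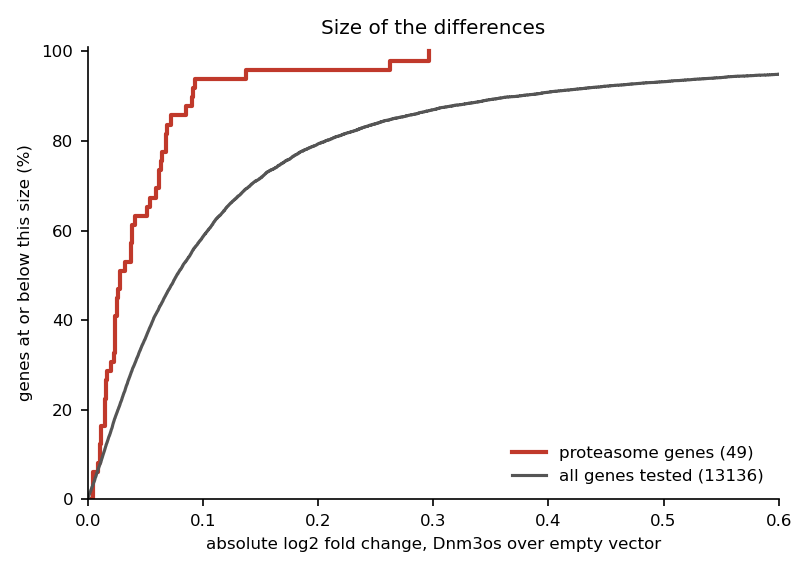
Share of genes (vertical axis, percent) whose absolute log2 fold change is at or below the value on the horizontal axis, for the 49 proteasome genes (red) and all 13136 genes tested (grey). The red curve reaches 93.9% at 0.1, where the grey curve is at 58.6%.

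Summed over the 49 genes, the level was 8391 and 8401 CPM in the Dnm3os libraries and 8514 and 8510 CPM in the empty vector libraries, a difference of -1.37%. Both Dnm3os libraries were below both empty vector libraries. Most of that difference lay in the 19S non-ATPase subunits and the alpha ring. The non-ATPase sum averaged 2702 ± 2.70 CPM in Dnm3os libraries and 2782 ± 13.9 CPM in empty vector libraries (SD, n = 2 each). The alpha ring sum averaged 1766 ± 4.49 and 1794 ± 13.4 CPM in the same order. Of the 11 non-ATPase genes, 7 had a log2 fold change below 0 and 4 above. The most abundant, Psmd2, averaged 635 CPM in Dnm3os libraries and 674 CPM in empty vector libraries, and Psmd1 389 and 406 CPM. The sums of the immunoproteasome genes were 518 and 524 CPM in the Dnm3os libraries and 517 and 516 CPM in the empty vector libraries. No test was made of these sums.

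The start-site regions of genes on which these values bear are printed from the RefSeq table of GRCm38.p6, each 300 bases long, of which 250 lie before the annotated start. The build of the counts is mm9, so these coordinates apply to the sequences only. Psmb8 and Psmb5 are shown as an immunoproteasome subunit and the partner it replaces, Psmb9 because its region is shared with Tap1, and Psmg4 and Psmd2 because they were called; each runs 5′ to 3′ on the strand of the gene, and capitals mark matches to the motifs named below.
Psmb8, chr17:34197945-34198244, plus strand: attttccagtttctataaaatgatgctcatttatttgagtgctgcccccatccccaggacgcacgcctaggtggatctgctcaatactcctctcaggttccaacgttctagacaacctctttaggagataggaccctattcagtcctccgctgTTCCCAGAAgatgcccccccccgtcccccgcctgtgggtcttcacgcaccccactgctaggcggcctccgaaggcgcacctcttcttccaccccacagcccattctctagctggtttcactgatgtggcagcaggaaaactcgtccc
Psmb5, chr14:54617946-54618245, minus strand: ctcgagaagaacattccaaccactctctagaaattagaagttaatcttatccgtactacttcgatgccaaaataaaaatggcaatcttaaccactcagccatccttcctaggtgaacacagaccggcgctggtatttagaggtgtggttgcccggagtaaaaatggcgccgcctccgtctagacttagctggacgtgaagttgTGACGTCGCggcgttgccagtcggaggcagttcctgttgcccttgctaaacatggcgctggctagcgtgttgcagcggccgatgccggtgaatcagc
Psmb9, chr17:34187281-34187580, minus strand: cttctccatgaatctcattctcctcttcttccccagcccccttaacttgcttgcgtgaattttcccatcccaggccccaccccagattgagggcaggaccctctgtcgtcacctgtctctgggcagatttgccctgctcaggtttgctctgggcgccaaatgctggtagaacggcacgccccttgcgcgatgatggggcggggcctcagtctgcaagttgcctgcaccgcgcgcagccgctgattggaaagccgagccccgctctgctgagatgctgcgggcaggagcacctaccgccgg
Psmg4, chr13:34162714-34163013, plus strand: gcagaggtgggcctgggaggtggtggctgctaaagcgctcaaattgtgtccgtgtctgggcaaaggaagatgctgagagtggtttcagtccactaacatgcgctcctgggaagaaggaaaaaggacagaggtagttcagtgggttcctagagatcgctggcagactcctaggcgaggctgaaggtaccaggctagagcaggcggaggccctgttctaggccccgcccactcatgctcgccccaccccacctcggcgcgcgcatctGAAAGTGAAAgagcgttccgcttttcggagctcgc
Psmd2, chr16:20651402-20651701, plus strand: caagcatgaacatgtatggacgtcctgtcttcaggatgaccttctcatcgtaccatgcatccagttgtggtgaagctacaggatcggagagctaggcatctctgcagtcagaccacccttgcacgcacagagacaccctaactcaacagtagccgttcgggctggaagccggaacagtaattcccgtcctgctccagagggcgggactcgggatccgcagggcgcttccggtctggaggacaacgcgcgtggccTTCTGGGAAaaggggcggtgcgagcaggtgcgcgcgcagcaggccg

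A total of 43 of the 51 genes had an entry in this table. The called gene Psma8 was among the 8 without an entry, so its region was neither printed nor searched. Both strands were searched for GAAA followed by any 2 bases and GAAA, the core of the interferon-stimulated response element, TTCNNNGAA, the gamma-activated sequence, and TGACNNNGC, the core of the antioxidant response element to which NRF1 and NRF2 bind. The interferon motif was in the regions of 5 of the 43 genes (11.6%) and in 3.44% of all 32851 regions in the table. These genes were Psmb3, Psmd4, Psmd9, Psme1 and Psmg4, and of them only Psmg4 was called. In Psmg4 it begins 15 bases after the start. TTCNNNGAA was in 3 of the 43 (6.98%), Psmb8, Psmd2 and Psmg1, and in 8.30% of all regions. It begins 97 bases before the start of Psmb8 and 4 bases after that of Psmd2, which alone of these genes was called. TGACNNNGC was in 6 of the 43 (14.0%) and in 12.4% of all regions, and begins 47 bases before the start of Psmb5. For each motif the shares are in unlike units, genes with a match in any of their regions against single regions. The shares were not tested. The motifs printed do not overlap each other. A match is only a run of letters, and no match in Psmb9 says only that these letters are not in its window.

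None of the 5 immunoproteasome genes passed the test. EdgeR, DESeq2 and limma-voom each called 0, where they called 12.2%, 5.76% and 12.1% of all genes tested. With only 5 genes, 0 calls do not set this class apart from all genes. Psmb10 alone was under 0.05 by edgeR's unadjusted p. Their median log2 fold change was 0.015. Psmb8 encodes the immunoproteasome subunit with chymotrypsin-like activity. It had 90.8 and 86.0 CPM in the Dnm3os libraries and 89.4 and 93.8 CPM in the empty vector libraries, and the groups overlapped. Psmb9, which takes the caspase-like site, had 24.0 and 24.9 CPM in the Dnm3os libraries and 24.7 and 22.9 CPM in the empty vector libraries, again overlapping. The 95% interval of the log2 fold change was -0.13 to 0.032 for Psmb8 and -0.094 to 0.18 for Psmb9.

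Psmb10, which takes the trypsin-like site, had the highest log2 fold change of the 5 genes. It had 51.8 and 56.6 CPM in the Dnm3os libraries and 49.5 and 49.1 CPM in the empty vector libraries. Both Dnm3os libraries were above both empty vector libraries, and Dnm3os library 2 was the highest. The log2 fold change was 0.14 ± 0.05 (SE; 95% interval 0.035 to 0.24) and did not pass (adjusted p = 0.0751 by edgeR). With Dnm3os library 1 left out it passed, at 0.20 (adjusted p = 0.0351 by edgeR), and with Dnm3os library 2 left out the value was 0.072 (adjusted p = 0.587 by edgeR).

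The activator pair did not pass, and the 95% interval of each gene lay within 0.1 of 0. Psme1 had 134 and 137 CPM in the Dnm3os libraries and 135 CPM in each empty vector library. Psme2 had 218 and 219.7 CPM in the Dnm3os libraries and 218 and 215 CPM in the empty vector libraries. The 95% intervals of the log2 fold change were -0.062 to 0.070 for Psme1 and -0.050 to 0.079 for Psme2. Psme2b, a near copy of Psme2 on another chromosome, averaged 29.9 ± 0.273 CPM in Dnm3os libraries and 28.5 ± 0.0982 CPM in empty vector libraries (SD, n = 2 each). Reads of the copies may be shared, so their separate values are uncertain.

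The constitutive subunits that the immunoproteasome replaces did not pass either. Psmb5, the chymotrypsin-like subunit, had 174 and 182 CPM in the Dnm3os libraries and 192 and 187 CPM in the empty vector libraries. The Dnm3os libraries were the lower ones, with a log2 fold change of -0.091 ± 0.033 (SE) and an adjusted p of 0.0806 by edgeR; it passed when empty vector library 2 was omitted (adjusted p = 0.0479 by edgeR) and with no filter on low counts (adjusted p = 0.0402 by edgeR). Without Dnm3os library 1 its value was -0.060 (adjusted p = 0.455 by edgeR). Psmb6, the caspase-like subunit, had 180.3 and 183 CPM in the Dnm3os libraries and 174 and 182 CPM in the empty vector libraries. Psmb7, the trypsin-like subunit, had 246 and 270.2 CPM in the Dnm3os libraries and 253 and 288 CPM in the empty vector libraries. For Psmb7, Dnm3os library 2 and empty vector library 2 were the higher of their groups, the groups overlapped, and its 95% interval ran from -0.41 to 0.27. Without empty vector library 1 Psmb7 passed at -0.16 (adjusted p = 0.00334 by edgeR), and without empty vector library 2 its value was 0.030.

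The ratio of counts of each immunoproteasome subunit to its constitutive partner, taken within a library, does not depend on scaling. For Psmb8 to Psmb5 it was 0.522 and 0.472 in the Dnm3os libraries and 0.466 and 0.501 in the empty vector libraries. For Psmb9 to Psmb6 it was 0.133 and 0.136 in the Dnm3os libraries and 0.142 and 0.125 in the empty vector libraries. For Psmb10 to Psmb7 it was 0.211 and 0.209 in the Dnm3os libraries and 0.196 and 0.170 in the empty vector libraries. The groups overlapped for the ratios of Psmb8 and Psmb9 and not for that of Psmb10, whose log2 ratio differed by 0.20. An exact two-sided permutation test of 2 against 2 libraries cannot go below p = 0.333, the value for Psmb10 to Psmb7; it was 0.667 for Psmb8 to Psmb5 and 1 for Psmb9 to Psmb6, over 3 ratios compared.

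**Figure D3:**
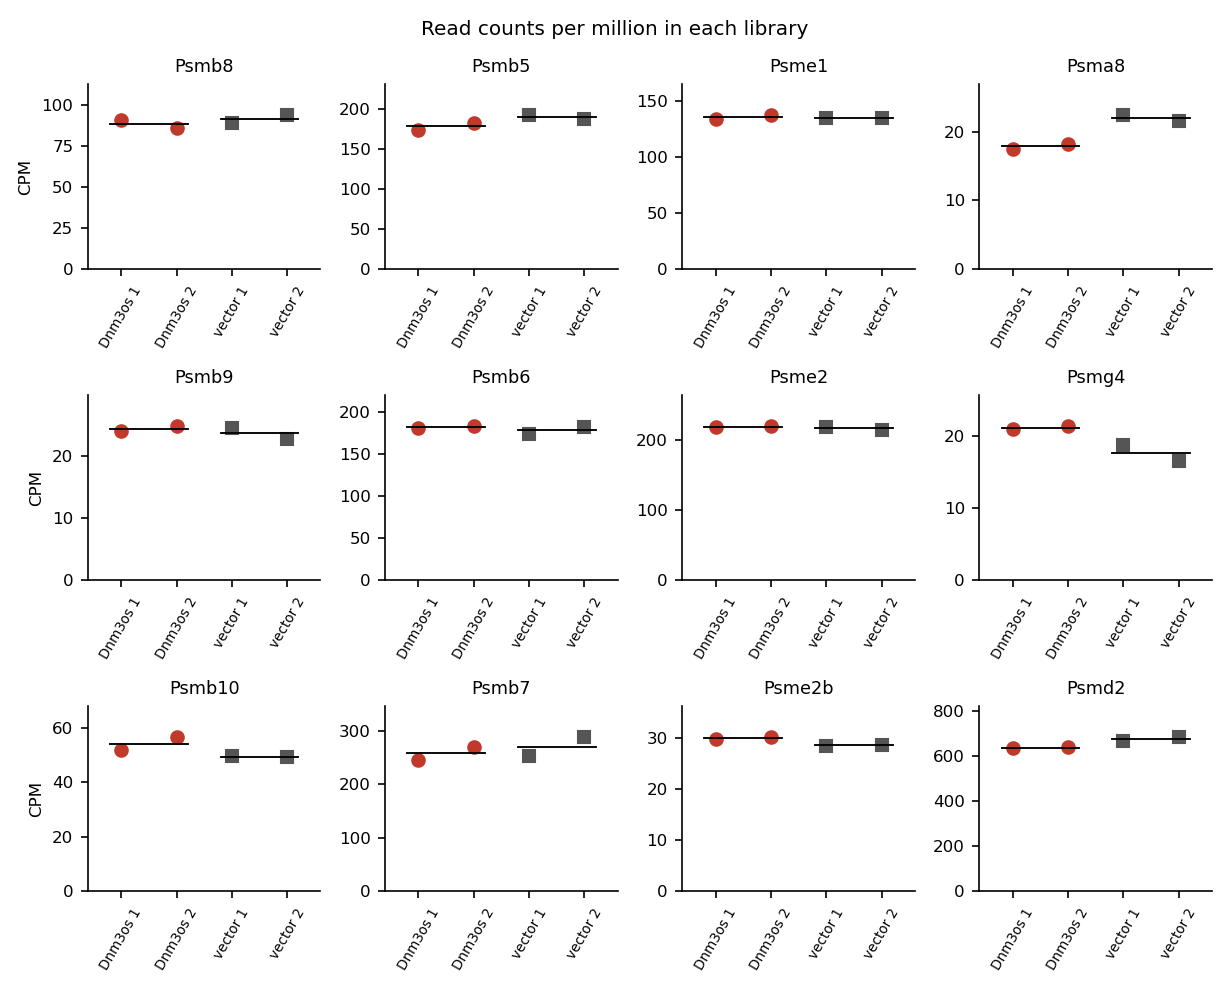
CPM (vertical axes, from 0) in each library for 12 genes: the immunoproteasome subunits, their constitutive partners and activators, and in the right column the genes called; red circles are Dnm3os libraries, grey squares empty vector libraries, and lines group means (n = 2). Psma8 is lower in both Dnm3os libraries (17.5 and 18.3 against 22.4 and 21.5 CPM), Psmg4 is higher, and the groups overlap for Psme1 and Psme2.

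Per length, the immunoproteasome's catalytic subunits were below their partners in both groups. With CPM divided by transcript length, Psmb8 was at 54.3 CPM per kilobase in Dnm3os libraries and 56.3 in empty vector libraries, and Psmb5 at 198 and 211 in the same order. Psmb9 was at 7.95% of the level per kilobase of Psmb6 in Dnm3os libraries and at 7.89% in empty vector libraries. Psmb10 was at 18.6% of Psmb7 in Dnm3os libraries and 16.2% in empty vector libraries, and Psmb8 at 27.5% and 26.7% of Psmb5. The activator Psme2 stood at 227 CPM per kilobase in Dnm3os libraries and 225 in empty vector libraries, in the range of the core subunits. Each length is that of the shortest GENCODE model that carries the same RefSeq accession, which may differ from the model counted.

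**Figure D4:**
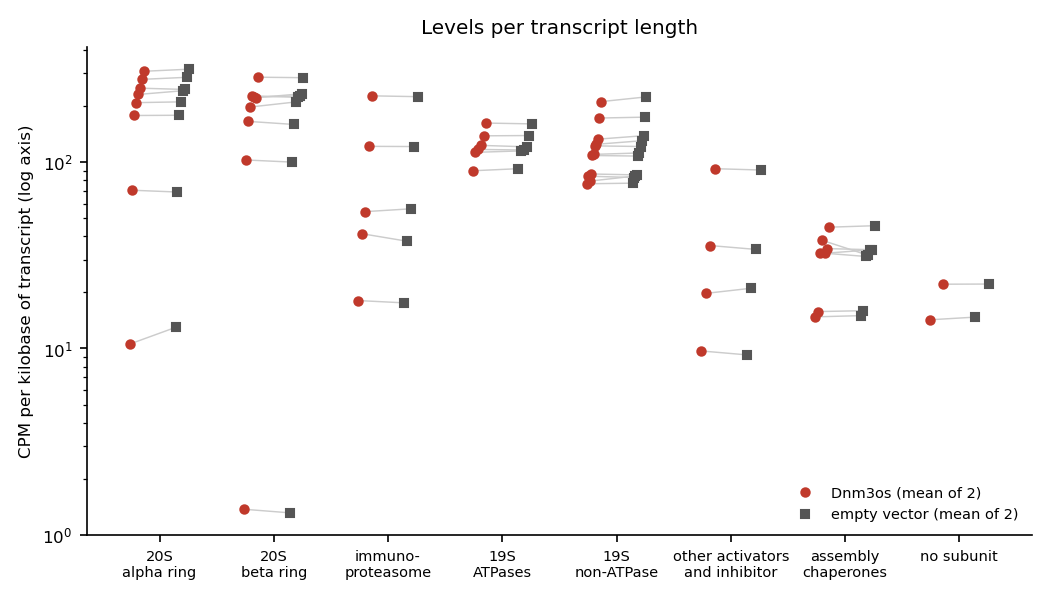
Level of each gene as CPM per kilobase of transcript (vertical axis, logarithmic) by role; red circles are means of the Dnm3os libraries, grey squares means of the empty vector libraries, and a line joins the same gene. The thymus-specific Psmb11 lies lowest, at 1.37 and 1.31, and the alpha ring subunit Psma3 highest, at 308 and 316.

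In the alpha ring, 1 of 8 genes fell (12.5%, against 12.2% of all genes tested called) and 7 did not pass (median log2 fold change -0.026). The gene that fell was Psma8, which encodes the testis-specific alternative to the alpha subunit Psma7. It was counted 513 and 624 times with Dnm3os and 890 and 758 times with the empty vector, or 17.5 and 18.3 CPM against 22.4 and 21.5 CPM. The groups did not overlap, and Psma8 fell by 0.30 on the log2 scale (SE 0.07; adjusted p = 0.00459 by edgeR), or -18.6%. DESeq2 did not call it (adjusted p = 0.0762 by DESeq2), nor did edgeR without Dnm3os library 1 (adjusted p = 0.0817 by edgeR).

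Psma8 and Psma7 are paralogs, and whether reads are shared between them was not tested. Psma7, at 227 and 229.8 CPM in the Dnm3os libraries and 229.4 and 221 CPM in the empty vector libraries, had a log2 fold change of 0.023 ± 0.032 (SE). Psma8 stood at 10.6 CPM per kilobase in Dnm3os libraries and 13.0 in empty vector libraries, the lowest of the alpha subunits, against 250.1 and 246 for Psma7. Of the constitutive alpha subunits, the lowest value was that of Psma1 (-0.068 ± 0.031, SE; adjusted p = 0.183 by edgeR) and the highest that of Psma2 (0.032 ± 0.033). Psma2 had 210.5 and 202 CPM in the Dnm3os libraries and 205 and 198 CPM in the empty vector libraries, which overlapped.

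In the beta ring outside the immunoproteasome, edgeR called 0 of 8 genes, against 12.2% of all genes tested. Neither DESeq2 nor limma-voom called any, and only Psmb5 had an unadjusted p under 0.05 by edgeR. The median log2 fold change was 0.018. The structural subunits Psmb1, Psmb2, Psmb3 and Psmb4 lay between -0.024 and 0.054. Psmb11, the catalytic subunit of the thymus-specific proteasome, was detected at a low level, at 6.07 and 5.56 CPM in the Dnm3os libraries and 5.79 and 5.34 CPM in the empty vector libraries. At counts of 178 to 230 per library its 95% interval was wide, from -0.18 to 0.30 on the log2 scale.

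The ATPases of the 19S base had the smallest median absolute log2 fold change of the classes, 0.020. Of Psmc1 to Psmc6, edgeR called 0 and had 0 under an unadjusted p of 0.05, against 12.2% and 23.2% of all genes tested. The other tools, DESeq2 and limma-voom, called 0 as well. The median log2 fold change of the ATPases was 0.0027, and their values ran between -0.038 for Psmc6 and 0.025 for Psmc5. Psmc6 had 211 and 191 CPM in the Dnm3os libraries and 204 and 208 CPM in the empty vector libraries, so that its Dnm3os libraries stood on both sides of the others. Psmc5 had 162 CPM in each Dnm3os library and 159.9 and 159 CPM in the empty vector libraries. Per kilobase the ATPases also lay close together, between 91.2 for Psmc6 and 162 for Psmc1 over all libraries.

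Among 11 non-ATPase subunits of the 19S particle, 1 fell (9.09%, against 12.2% of all genes tested called) and 10 did not pass (median -0.016). Psmd2 encodes the large base subunit that docks ubiquitin shuttle proteins; of its 2 RefSeq models, the higher and here used is annotated as noncoding. It had 632 and 638 CPM in the Dnm3os libraries and 666 and 681 CPM in the empty vector libraries. The groups did not overlap, and Psmd2 fell by 0.085 on the log2 scale (SE 0.027; adjusted p = 0.0411 by edgeR), or -5.74%. This call did not hold when any of the 4 libraries was omitted (adjusted p from 0.0515 to 0.246 by edgeR), with a replicate block (adjusted p = 0.0947 by edgeR), with isoforms summed (adjusted p = 0.0645 by edgeR) and by DESeq2 (adjusted p = 0.106).

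The subunit most like Psmd2 in size and place, the scaffold Psmd1, had 391 and 387 CPM in the Dnm3os libraries and 407 and 406 CPM in the empty vector libraries (-0.064 ± 0.030, SE; adjusted p = 0.195 by edgeR). Psmd11, which clamps the 19S particle to the core, had 227 and 225 CPM in the Dnm3os libraries and 238 and 242 CPM in the empty vector libraries (-0.092 ± 0.031, SE; adjusted p = 0.0577 by edgeR). The Dnm3os libraries were the lower ones for both genes, and Psmd11 passed with upper-quartile factors (adjusted p = 0.0464 by edgeR), when low counts were kept (0.0377) and with a 1 CPM minimum (0.0484). The ubiquitin receptor Psmd4 (-0.016) and the deubiquitinase Psmd14 (0.012) had values close to 0, and the highest was that of Psmd6 (0.024), with 117 CPM in each Dnm3os library and 114 and 116 CPM in the empty vector libraries.

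Of the 4 other activators and inhibitors, edgeR, DESeq2 and limma-voom called 0, where edgeR called 12.2% of all genes tested. Only Psme4 was under 0.05 by edgeR's unadjusted p. The nuclear activator Psme3 averaged 246 ± 0.445 CPM in Dnm3os libraries and 242 ± 2.72 CPM in empty vector libraries (SD, n = 2 each). Psme4, a large single-chain activator, had 130.2 and 126 CPM in the Dnm3os libraries and 139 and 135 CPM in the empty vector libraries, without overlap (log2 fold change -0.093 ± 0.033, SE; adjusted p = 0.0726 by edgeR). It passed with no filter on low counts (adjusted p = 0.0340 by edgeR) and without empty vector library 2 (adjusted p = 0.0457 by edgeR). Psmf1, known as a proteasome inhibitor, had 35.4 and 38.5 CPM in the Dnm3os libraries and 35.2 CPM in each empty vector library (0.072 ± 0.057, SE). Its value rested on Dnm3os library 2, without which it was 0.0098, and without Dnm3os library 1 it was 0.13.

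Among 7 assembly chaperones, 1 rose (14.3%, against 12.2% of all genes tested called) and 6 did not pass (median -0.016). Psmg4, which pairs with Psmg3 and helps the alpha ring to form, was counted 614 and 729 times with Dnm3os and 742 and 582 times with the empty vector, or 20.9 and 21.3 CPM against 18.7 and 16.5 CPM. Both Dnm3os libraries were above both empty vector libraries. Psmg4 rose by 0.26 ± 0.07 on the log2 scale (SE; adjusted p = 0.0180 by edgeR), or 19.9%. The call was lost by DESeq2 (adjusted p = 0.194) and when either Dnm3os library or empty vector library 2 was omitted (adjusted p from 0.106 to 0.255 by edgeR), and without empty vector library 1 the value was 0.35.

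The partner Psmg3 averaged 30.4 ± 1.14 CPM in Dnm3os libraries and 30.0 ± 1.08 CPM in empty vector libraries (SD, n = 2 each), with a log2 fold change of 0.020. The other alpha ring chaperones, Psmg1 (-0.027) and Psmg2 (0.065), and the chaperones of the 19S base, Psmd5 (-0.016), Psmd9 (-0.022) and Psmd10 (-0.062), did not pass. Psmd10 had 46.9 and 45.9 CPM in the Dnm3os libraries and 48.5 and 48.3 CPM in the empty vector libraries. Psmc3ip (-0.0046) and Psme3ip1 (-0.048), which are no subunits, did not pass either.

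Psmb9 and Tap1, a subunit of the transporter that carries proteasome products into the endoplasmic reticulum, are transcribed in opposite directions, and 275 of the 300 bases of their regions are shared. Tap1 averaged 61.6 ± 2.35 CPM in Dnm3os libraries and 62.9 ± 2.67 CPM in empty vector libraries (SD, n = 2 each). Neither Tap1 (-0.031 ± 0.045, SE; adjusted p = 0.770 by edgeR) nor Psmb9 (0.040 ± 0.065, SE; adjusted p = 0.794 by edgeR) passed. Of 14 genes of class I peptide supply and loading, 1 rose (Pdia3, a thiol oxidoreductase of the loading complex, 0.12) and 1 fell (B2m, the class I light chain, -0.11). That is 14.3% called, against 12.2% of all genes tested. In this list 6 genes had a log2 fold change above 0 and 8 below. The largest differences, in H2-D1 (-0.25) and H2-K1 (-0.19), did not pass. Their 95% intervals ran from -0.66 to 0.15 and from -1.22 to 0.84. Pdia3 had an adjusted p of 0.000761 by edgeR, lost when Dnm3os library 2 was omitted (0.0579), and B2m one of 0.00796, lost when either Dnm3os library or empty vector library 2 was omitted (0.0721 to 0.153).

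Of 10 proteasome-associated factors tested, 1 fell (10%, against 12.2% of all genes tested called) and 9 did not pass (median 0.014). The assembly factor Pomp (0.028), the ubiquitin receptor Adrm1 (0.017) and the deubiquitinase Usp14 (-0.019) were close to 0. The ubiquitin ligase Ubr4, which associates with proteasomes, averaged 182 ± 1.91 CPM in Dnm3os libraries and 199 ± 14.2 CPM in empty vector libraries and fell by 0.13 on the log2 scale (adjusted p = 0.0483 by edgeR). The call of Ubr4 was lost by DESeq2 (adjusted p = 0.128), by limma-voom (adjusted p = 0.0665), with isoforms summed (adjusted p = 0.113 by edgeR), and when either Dnm3os library or empty vector library 2 was omitted (adjusted p from 0.234 to 0.476 by edgeR). Its log2 fold change was -0.056 when empty vector library 2 was omitted and -0.21 when library 1 of that group was.

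NRF1, encoded by Nfe2l1, is the factor known to raise proteasome genes when proteasome activity is low. Nfe2l1 averaged 263 ± 0.453 CPM in Dnm3os libraries and 251 ± 13.2 CPM in empty vector libraries (0.066 ± 0.035, SE; adjusted p = 0.267 by edgeR). Of the 6 genes of its pathway, 1 rose and 1 fell, or 33.3% called, against 12.2% of all genes tested. The ubiquitin ligase Syvn1 rose (0.13, adjusted p = 0.0240 by edgeR). The related factor Nfe2l2 fell (-0.13, adjusted p = 0.0123 by edgeR). DESeq2 made neither call, and both were lost when library 2 of either group was omitted; Syvn1, at 0.083 without Dnm3os library 2, also with isoforms summed, and Nfe2l2 also without Dnm3os library 1. Ddi2 (0.018) and Ngly1 (0.022), the protease and glycanase that process NRF1, did not pass.

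Of 14 ubiquitin and shuttle genes, 1 fell (7.14%, against 12.2% of all genes tested called) and 13 did not pass (median -0.028). Uba6, an alternative ubiquitin-activating enzyme, averaged 107 ± 4.01 CPM in Dnm3os libraries and 123 ± 2.09 CPM in empty vector libraries and fell by 0.19 on the log2 scale (adjusted p = 0.000580 by edgeR), a call lost without Dnm3os library 2 (adjusted p = 0.0582 by edgeR). The main activating enzyme, Uba1, was at -0.0067 ± 0.026 (SE). Of 10 regulators by which interferon gamma acts on the immunoproteasome, 1 rose and 1 fell, or 20% called, against 12.2% of all genes tested. Irf8, a myeloid transcription factor, had 26.7 and 25.5 CPM in the Dnm3os libraries and 16.5 and 17.4 CPM in the empty vector libraries, and rose by 0.62 on the log2 scale (adjusted p = 4.07e-07 by edgeR). The class I regulator Nlrc5 had 31.9 and 32.5 CPM in the Dnm3os libraries and 39.8 and 38.8 CPM in the empty vector libraries, and fell by 0.29 (adjusted p = 0.000792 by edgeR). Neither pair of groups overlapped. Irf1 (-0.051), a transcription factor induced by interferon gamma, did not pass. The strand setting of the counting is not given in the sources, and Psmb5, Psmb7, Psmd1, Psmd10, Psme1, Psme2b, Psme4 and Psmf1 overlap another annotated gene, whose reads their values may hold.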

How the data were processed

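Poly(A) RNA of 4 libraries was sequenced on an Illumina HiSeq after TruSeq preparation, per the labels' protocols. The submitters' processing notes name TopHat, Bowtie2, DESeq2 and the build mm9, with no versions or roles; for the read counter, annotation and strand setting, nothing is given in the sources used here. The deposited raw column holds whole-number read counts for 35786 RefSeq transcripts. The deposited normalized column, a scaled signal, is proportional to the raw count within a library, and only the 4 constants were used.

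RefSeq (35499 transcripts) and GENCODE (178) tables gave the names, leaving 109 unnamed with 0.246 to 0.276% of the counts, which were left out. After filterByExpr and TMM scaling (factors 0.9971 to 1.0031), the counts went into the quasi-likelihood test of edgeR 4.0.16 (glmQLFit, robust; two-sided, Benjamini-Hochberg over 13136 genes) in R 4.3.3. SE was obtained by dividing the absolute log2 fold change by the root of F, and 95% intervals use the moderated degrees of freedom. CPM use the TMM-scaled library size. The alternatives were DESeq2 1.42.0, limma-voom (limma 3.58.1), other scalings and filters, a replicate block, isoforms summed and each library left out; a crossed block was chosen after seeing the data. With a library left out, the single one remaining in its group is taken to vary as the other group does. Replicates differed by more than sampling noise (chi-square per degree of freedom 4.17 in Dnm3os and 5.13 in empty vector libraries). The members and lists were chosen with earlier results of these data known. Values are given by library for called members, the immunoproteasome genes, their partners and extremes of each class, and up to 4 called genes per other list are named with their calls; other genes were named after their values were seen. Paaf1 found no match. A gene of the interferon gamma list is not reported here by name.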

Additional observations from a re-analysis of the deposited data

How the results depend on the processing

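The numbers of proteasome genes called rest on small margins: by edgeR 1 was higher and 2 were lower, with no filter on low counts 5 were lower (11.1% of all genes called), with the replicate block 1 was lower (12.0%), and with isoforms summed 1 was lower (9.93%). DESeq2 called 0 higher and 0 lower, and 398 of all genes higher and 359 lower, against 851 and 758 by edgeR. Leaving out a library gave 0 to 1 proteasome genes higher and 0 to 3 lower, 0 to 1 immunoproteasome genes higher (Psmb10, without Dnm3os library 1), and 434 to 802 of all genes higher and 372 to 784 lower (6.03 to 10.9% called). The labels do not say whether libraries with the same number share a batch. The correlation between libraries numbered 1 was -0.249, over deviations from the group means of 8917 genes. With 2 libraries per group the deviations mirror each other, so this is 1 value without a spread and cannot settle the pairing. Of the calls of proteasome genes reported, the replicate block changed that of Psmd2. With the crossed block, 2 proteasome genes were higher and 5 lower, and 1 immunoproteasome gene was higher, where 1058 of all genes were higher and 949 lower (15.3% called). With a library left out, the median log2 fold change ran from -0.031 to -0.016 in the alpha ring, from -0.0041 to 0.026 in the beta ring, from -0.0071 to 0.024 in the ATPases, from -0.030 to -0.0088 in the non-ATPase subunits, and from 0.018 to 0.048 in the other activators and the inhibitor, from 0.0038 to 0.021 in the immunoproteasome, from -0.020 to -0.0011 in the assembly chaperones, and from -0.0051 to 0.00099 over the proteasome genes. The median of the non-ATPase subunits was -0.020 with upper-quartile factors and -0.020 with no filter. The difference of the summed CPM was -1.51% with DESeq2 size factors, -1.65% with upper-quartile factors, -1.68% with no filter, -1.59% with isoforms summed, -1.56% with a 1 CPM minimum, -1.45% with the authors' constants, and -1.67 to -1.40% with a library left out. Psme1, at 0.0039, was at -0.00020 with upper-quartile factors and -0.00064 with no filter. With a library left out, values that changed sign ran from -0.014 to 0.019 for Psme1, -0.00051 to 0.063 for Psma2, -0.0047 to 0.12 for Psmb11, -0.012 to 0.062 for Psmb6, -0.16 to 0.030 for Psmb7, -0.011 to 0.091 for Psmb9 and -0.11 to 0.034 for Psmc6; none of these was called in the fit reported. Values ran from -0.092 to -0.011 for Psmb8, 0.0097 to 0.033 for Psmd6 and 0.0039 to 0.021 for Psme2. The log2 ratio differed by -0.033 to 0.11 for Psmb8 to Psmb5, -0.074 to 0.10 for Psmb9 to Psmb6 and 0.10 to 0.30 for Psmb10 to Psmb7. The causes were not tested. The median SE of the proteasome genes was 0.033, and genes of low count such as Psmb11 had wider intervals.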
